A study of Mus musculus with 3 samples.

Results

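J774A.1 cells that had been starved for 6 h in the presence of the p38 inhibitor SB202190 were compared with cells in full medium. J774A.1 is an established mouse macrophage-like cell line. The starved cells were held in Earle's Balanced Salt Solution (EBSS), buffered salts and glucose that supply neither amino acids nor serum, with 10 µM SB202190 added. The cells in full medium were held for the same time in RPMI with 10% fetal bovine serum. The remaining condition, EBSS without the inhibitor, entered only because the 3 conditions were hybridised in a loop. The labels do not say whether the cells without SB202190 received its solvent, and name no separate cultures, so that each condition was taken as 1 sample. The inhibitor and the loss of nutrients therefore both separate the 2 samples compared, and every cell came from 1 line. Members of the comparison were the non-control probes that were well above background in both dye channels of EBSS with SB202190, or in both of RPMI. They numbered 17336 of the 41106 probes and stood for 11868 of the 27566 genes on the array, each gene being represented by its brightest kept probe.

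Removal of amino acids leaves transfer RNAs uncharged, which activates the kinase GCN2 and the integrated stress response, a programme of transcription run by ATF4 and its partners. It also lowers mTORC1 activity at the lysosome, which releases autophagy and allows MiT/TFE and FOXO transcription factors to act, while removal of serum stops growth factor signalling through ERK and AKT. The p38 MAP kinases are activated by stress and by Toll-like receptors. In macrophages they act through MK2 and MSK kinases on the stability and transcription of short-lived inflammatory mRNAs. SB202190 is a pyridinyl imidazole that occupies the ATP site of the alpha and beta forms of p38.

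Each condition gave 2 readings, a Cy5 and a Cy3 one, over 3 arrays of 1 slide. The direct path between both conditions was array 3, where the inhibitor-treated starved sample carried Cy5 and the RPMI sample Cy3. Arrays 1 and 2 linked both to EBSS and gave the indirect path. The log2 ratio reported is the least-squares value over the loop, in which a dye bias of a probe that is equal on all arrays cancels. Its error is a technical standard error (SE), taken from the spread of the sum of the ratios around the loop among probes of like brightness. That spread is measured about the median of those probes, and the sum also holds the dye bias that cancels in the log2 ratio. The median SE over genes was 0.14 and its range 0.12 to 0.27, and it leaves out any spread between cultures. No p-values are given, since each condition was 1 sample. The number of arrays limits the precision of all values below. Across genes, which are not independent replicates, the Cy5 and Cy3 readings correlated with r = 0.996 in EBSS with SB202190 and 0.997 in RPMI. The 2 conditions within array 3 correlated with r = 0.968. All 10 macrophage markers examined (among them Adgre1, Csf1r, Cd68 and Lyz2) were measured, against 3 of 31 markers of other cell types with a probe (Lck, S100a8 and Hba-a1).

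Promoters of 7 called genes are shown first, because they hold the motifs counted at the end of the results. They were chosen after the values had been seen. The sequences come from RefSeq on build GRCm38.p6. Each run is the 150 bases before the annotated start of transcription, 5′ to 3′ on the strand of the gene. In the first 4, genes higher in EBSS with SB202190, capitals mark TGATGNAA or its complement, the element read by heterodimers of C/EBP and ATF proteins.
Herpud1 (chr8:94386279-94386428, plus strand): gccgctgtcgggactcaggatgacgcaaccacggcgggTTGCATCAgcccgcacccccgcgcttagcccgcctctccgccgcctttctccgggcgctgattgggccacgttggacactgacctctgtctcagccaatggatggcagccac
Nupr1 (chr7:126625471-126625620, minus strand): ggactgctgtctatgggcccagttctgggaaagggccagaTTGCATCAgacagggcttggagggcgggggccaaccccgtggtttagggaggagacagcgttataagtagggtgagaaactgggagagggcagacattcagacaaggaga
Atf3 (chr1:191183334-191183483, minus strand): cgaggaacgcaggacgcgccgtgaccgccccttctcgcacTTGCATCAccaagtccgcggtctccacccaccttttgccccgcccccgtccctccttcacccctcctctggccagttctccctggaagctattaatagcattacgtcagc
Gadd45g (chr13:51846525-51846674, plus strand): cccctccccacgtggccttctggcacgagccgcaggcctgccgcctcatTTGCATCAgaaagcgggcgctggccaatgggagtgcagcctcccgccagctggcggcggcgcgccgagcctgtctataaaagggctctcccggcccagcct
In the next 3, genes lower in EBSS with SB202190, capitals mark TATAAA, the TATA box (Fos and Ccl12), or GGGNNTTCC and TGANTCA, the NF-kappaB and AP-1 sites (Cxcl10).
Fos (chr12:85473740-85473889, plus strand): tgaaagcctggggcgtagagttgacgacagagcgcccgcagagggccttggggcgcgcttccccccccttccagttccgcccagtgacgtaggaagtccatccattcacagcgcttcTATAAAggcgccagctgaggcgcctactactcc
Ccl12 (chr11:82101695-82101844, plus strand): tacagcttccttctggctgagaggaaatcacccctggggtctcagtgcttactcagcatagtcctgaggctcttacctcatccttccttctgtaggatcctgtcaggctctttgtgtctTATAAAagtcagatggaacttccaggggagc
Cxcl10 (chr5:92348890-92349039, minus strand): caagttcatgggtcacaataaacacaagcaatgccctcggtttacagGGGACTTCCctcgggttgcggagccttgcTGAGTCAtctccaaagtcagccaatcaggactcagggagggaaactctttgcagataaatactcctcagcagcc

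Calls required a log2 ratio of 1 or more in size, with both paths of the same sign and 0.5 or more in size. By this rule 287 genes (2.42% of 11868) were higher in EBSS with SB202190 than in RPMI. Lower were 497 genes (4.19%), so that 784 genes (6.61%) were called in either direction and 63.4% of the calls were lower. Counts per gene list below are to be read against these shares. Centring each array on the median of all its probes, in place of loess, left 72 higher and 466 lower calls, and lower calls were then 86.6% of the total. Of the 287 genes called higher, 67 kept the call under that centring, and 154 others kept a ratio of 1 or more but had a path that fell short. Centring on the median of probes above background in all channels, also without loess, gave 289 higher and 475 lower calls. It kept 266 of the 287 higher and 465 of the 497 lower calls. At a difference of 4-fold or more, 30 genes were higher and 61 lower. In bulk RNA, fewer cells that carry a transcript and less of it per cell cannot be told apart. Loess centres each array near 0, so that a shift shared by most genes could not be seen. The median log2 ratio over all measured genes, which this centring largely sets, was 0.01. On this centred scale, 75.8% of the genes had a log2 ratio under 0.5 in size. Across genes the direct and indirect paths correlated with r = 0.795, and the 2 paths had opposite signs for 3326 genes. In 11 genes the ratio reached 1 in size but a path fell short. The plot of both paths shows these as points away from the diagonal.

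**Figure D1:**
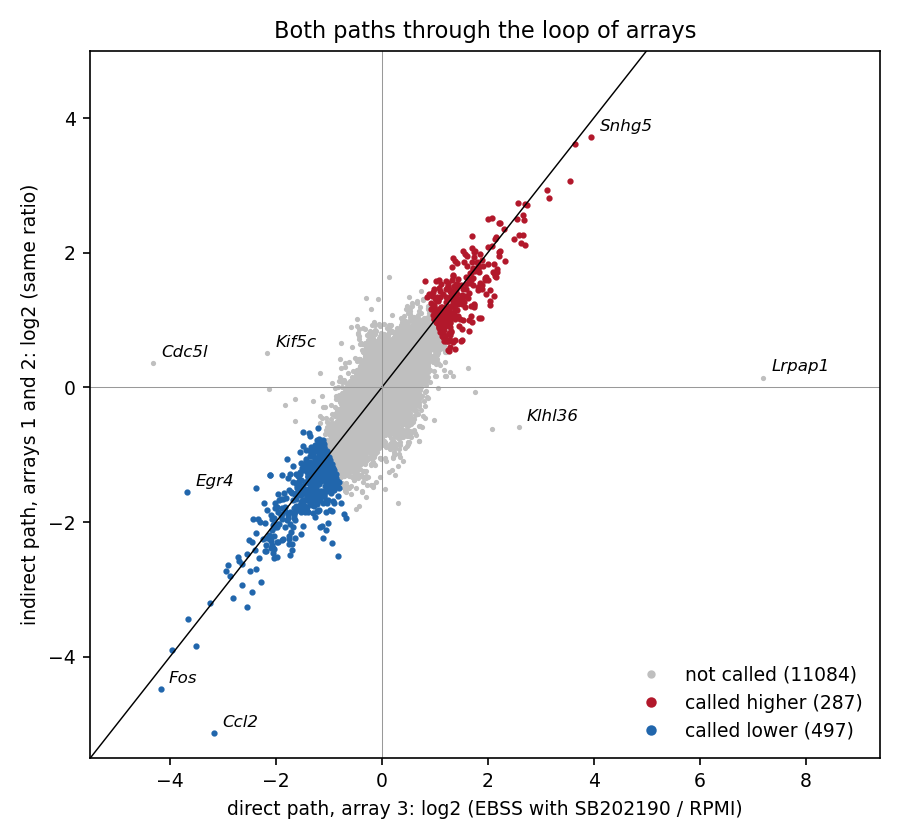
Log2 ratio of EBSS with SB202190 over RPMI for 11868 genes, from array 3 alone (x axis) and from arrays 1 and 2 (y axis); the line marks equality. The 287 genes called higher (red) and 497 called lower (blue) are those past the call rule, and Lrpap1, Cdc5l, Klhl36 and Kif5c lie away from the line and were not called.

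The genes whose paths differed most were Lrpap1, Cdc5l, Klhl36, Kif5c and Egr4. For Lrpap1, a chaperone of lipoprotein receptors, 5 channels read 12.86 to 13.73 and the RPMI Cy3 channel read 5.67, so that its log2 ratio of 4.84, the highest of all, rested on 1 reading and was not called. A second kept probe gave 0.89. For Cdc5l, a splicing factor, the Cy5 reading of EBSS with SB202190 was 8.88 and its other readings lay between 13.20 and 14.46. Egr4, a transcription factor of the EGR family, was called lower but not well above background in EBSS with SB202190. Its measured means were 6.22 there and 8.77 in RPMI, where its readings of 7.76 and 9.77 lay far apart. The bound for a dim gene, taken from the RPMI mean, was 3.79-fold lower. Its log2 ratio ran from -6.13 by the scanner software's signals to -1.58 with normexp fitted on all spots. Its direct path was -3.67 and its indirect path -1.55.

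**Figure D2:**
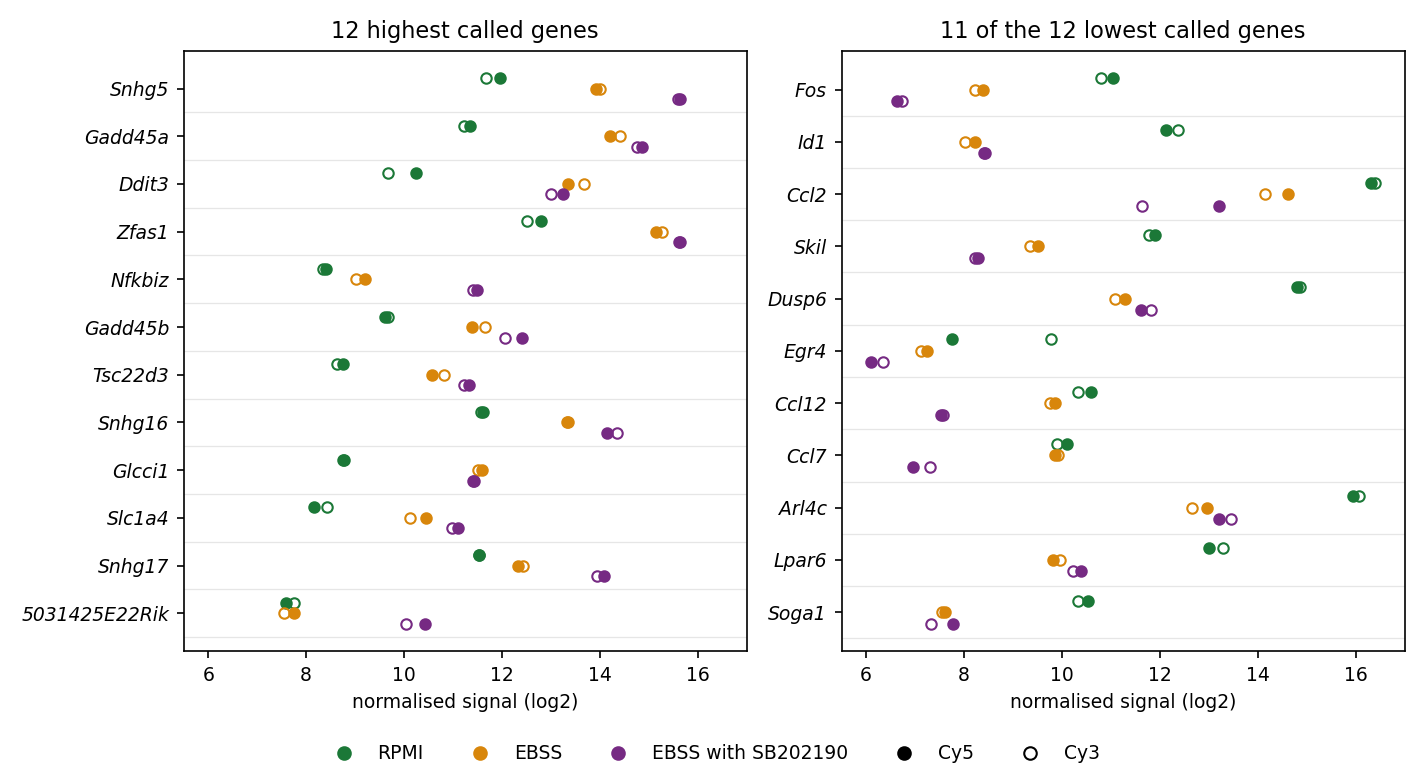
Normalised signal (log2) of the 12 highest and 11 of the 12 lowest called genes with a gene symbol, in Cy5 (filled) and Cy3 (open) for RPMI (green), EBSS (orange) and EBSS with SB202190 (purple). In each gene both readings of EBSS with SB202190 lie on the same side of both RPMI readings, as they do in all 784 called genes. Calls were made from these same readings, so this adds no separate support. Some uncalled genes, such as Atf4 and Mapk14, show the same. For Snhg5 the readings with SB202190 are 15.64 and 15.60 against 11.95 and 11.68 in RPMI. The largest gap between readings of 1 condition is that of Egr4 in RPMI.

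The integrated stress response was higher in part. Of 26 measured factors and targets, 7 were called higher and 1 lower, and their median log2 ratio was 0.52. Ddit3, the pro-apoptotic factor CHOP, led them. Its readings in EBSS with SB202190 were 13.24 and 12.99 (Cy5 and Cy3, as in all pairs below) and in RPMI 10.25 and 9.68. The log2 ratio was 3.40 ± 0.13 (technical SE). Trib3, a pseudokinase that dampens ATF4 and AKT, read 15.00 and 15.02 against 12.87 and 12.99 in RPMI, a log2 ratio of 2.17 ± 0.21. Ppp1r15a, the GADD34 subunit that returns eIF2 alpha to its active state, had a ratio of 2.17 ± 0.13, with readings of 12.27 and 12.31 against 10.87 and 10.03. The other 4 called higher were Ndrg1 (2.03), Sesn2 (1.90), Nupr1 (1.38) and Atf3 (1.27). The lower member was Cebpb (-1.01), a partner and target of ATF4. With all-probe centring 1 gene of the list was called higher and none lower, although the ratios of Ddit3, Ppp1r15a and Ndrg1 were 3.21, 1.98 and 1.80.

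Atf4 itself missed the rule at 0.97 ± 0.14, with paths of 0.74 and 1.43. Among uncalled members, shown as examples, were several biosynthetic targets of ATF4. Asns, asparagine synthetase, read 15.65 and 15.48 in EBSS with SB202190 and 15.41 and 15.50 in RPMI, ranges that overlapped, and its ratio was 0.18 ± 0.21. The mitochondrial folate enzyme Mthfd2 was at 0.24, the serine enzymes Psat1 and Psph at 0.07 and -0.20, and the factor Atf5 at 0.13. Higher but also uncalled were Cth (0.71), an enzyme of cysteine synthesis, Aldh18a1 (0.50), of proline synthesis, and Pck2 (0.44). None of the 20 cytosolic aminoacyl-tRNA synthetases was called, with a median of 0.21 and a range of -0.41 (Mars1) to 0.62 (Eprs).

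EBSS without the inhibitor, set against the same RPMI sample, gave other values for these genes. Both comparisons share that sample, so that their values are given side by side only. Ndrg1, a stress-induced gene of the NDRG family, was at 5.04 in EBSS and 2.03 with SB202190. Asns was at 1.15 in EBSS and 0.18 with SB202190, and Atf5 at 2.15 and 0.13. Ddit3 was at 3.58 and 3.40. The median of the 26 genes was 1.77 in EBSS and 0.52 with SB202190, and that of the synthetases 0.75 and 0.21. Over the loop, the log2 ratio of EBSS with SB202190 over EBSS was -3.01 for Ndrg1.

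**Figure D3:**
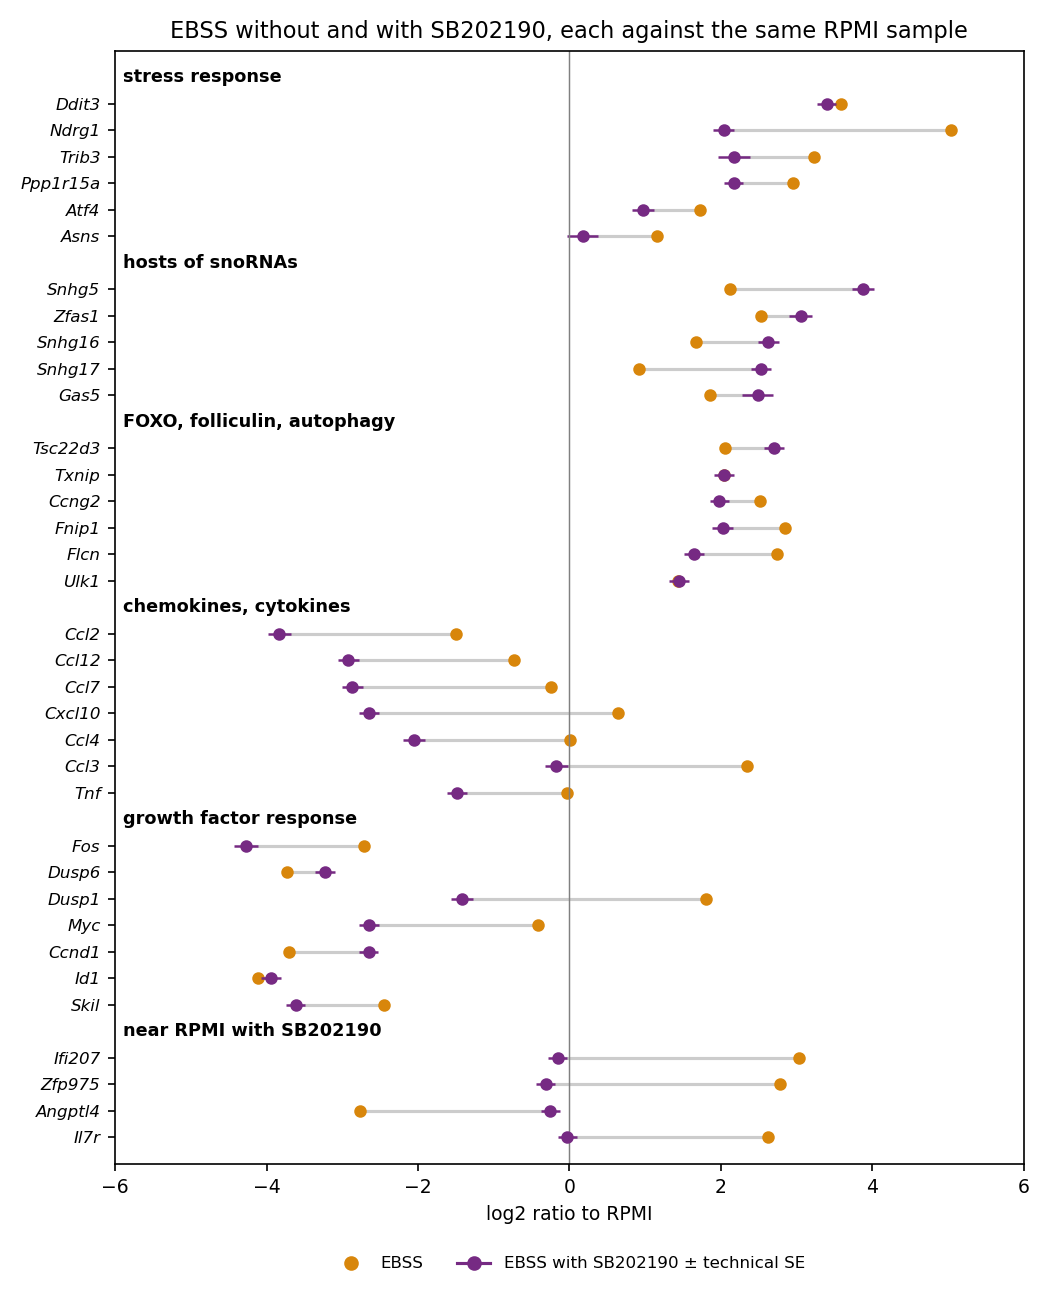
Log2 ratio to RPMI of EBSS (orange) and EBSS with SB202190 (purple, with technical SE) for selected genes in 6 groups. Ddit3 stood at 3.58 and 3.40, Ndrg1 at 5.04 and 2.03, and Ccl7 at -0.24 and -2.87; both values of a gene use the same RPMI sample.

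Amino acid carriers, most of them of the plasma membrane, were called higher for 3 of 18 measured members and lower for 1, with a median of 0.19. Slc1a4, a carrier of alanine, serine and cysteine, read 11.11 and 10.97 against 8.16 and 8.43 in RPMI, and its log2 ratio was 2.61 ± 0.12. Slc3a2, the heavy chain shared by several exchangers, was at 1.46 ± 0.21, and Slc38a7, a lysosomal glutamine carrier, at 1.08. The lower member, Slc36a1, exports amino acids from lysosomes and was at -1.01, which is just past the limit of 1. Slc38a2, the starvation-induced glutamine carrier, missed the rule at 0.98 and was at 2.24 in EBSS alone.

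Host transcripts of small nucleolar RNAs, noncoding except for the protein-coding Taf1d, had the highest median of the 44 lists, here and under every alternative tried. Such transcripts carry the small RNAs in their introns, and the spliced remainder of the noncoding ones is usually degraded during translation by nonsense-mediated decay. Of 9 measured, 6 were called higher, and the median log2 ratio was 2.18 against 0.01 over all genes. Snhg5 had the largest ratio of all called genes, 3.88 ± 0.15 or 14.7-fold. Its readings were 15.64 and 15.60 in EBSS with SB202190 and 11.95 and 11.68 in RPMI, with an EBSS mean of 13.96. The ranges did not overlap, as in all 784 called genes, which were called from these same readings. Snhg16 stood at 2.63 ± 0.13, with readings of 14.14 and 14.34 against 11.62 and 11.57. Snhg17 stood at 2.53 ± 0.13, with readings of 14.09 and 13.94 against 11.54 in both dyes. Taf1d (2.18), whose value is the list median, and Snhg7 (1.77) were also called higher. Zfas1, a further host that is not in the list and was named because it is among the 12 highest genes, stood at 3.06 ± 0.15, with readings of 15.63 and 15.61 against 12.80 and 12.51.

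Gas5, the host first found in growth-arrested cells, was at 2.49 ± 0.21. It read 15.77 and 15.64 against 13.70 and 13.18, but a dimmer kept probe for it gave -0.90. The 3 uncalled hosts were Snhg18 (0.07), Snhg8 (0.05) and Snhg3 (-0.38). Side by side, the list median was 1.06 in EBSS and 2.18 with SB202190, Snhg5 being at 2.13 and 3.88 and Snhg17 at 0.92 and 2.53.

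FOXO factors and nutrient withdrawal targets, taken as 1 list, were called higher for 4 of 11 measured members and lower for none, with a median of 0.76. Higher calls numbered 1 with all-probe centring and 6 by the scanner software's signals, where the median was 1.38. The median was 0.50 with normexp fitted on all spots and 0.25 with no filter on dim probes. Tsc22d3, the leucine zipper protein GILZ that restrains inflammatory transcription, read 11.32 and 11.23 against 8.75 and 8.62, a ratio of 2.71 ± 0.13. Other kept probes gave 2.89 and 1.21. Txnip, which binds thioredoxin and limits glucose uptake, was at 2.04 ± 0.13 and at the same value in EBSS alone. The cyclin Ccng2 was at 1.98 and the repressor Hbp1 at 1.45, with 0.54 from another kept probe. Among folliculin, Rag GTPases and MiT/TFE factors, 4 of 17 were called higher, with a list median of 0.19. With all-probe centring 1 was called higher, and the median was 0.01 when each gene was given the median over its kept probes. The 4 were folliculin itself (Flcn, 1.65 ± 0.13), its partners Fnip1 (2.02 ± 0.14) and Fnip2 (1.47 ± 0.13), and Sesn3 (1.69 ± 0.14), a sestrin that inhibits mTORC1. For Fnip1 both other kept probes gave 1.82 and 2.03. The factors Tfeb (-0.28), Tfe3 (-0.06) and Mitf (-0.53) were not called.

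Autophagy genes were called higher for 5 of 31 and lower for none, with a median of 0.30. With all-probe centring none was called and the median was 0.16, and with the median over kept probes 3 were called higher. Atg14 (1.47), which targets the lipid kinase VPS34 to the membrane where autophagosomes form, and the initiating kinase Ulk1 (1.45) led them. Atg12 (1.42), Rb1cc1 (1.36) and Uvrag (1.19) followed. For Atg12 both other kept probes gave 0.24 and 0.31, and for Rb1cc1 the 4 others gave 0.24, 0.36, 0.40 and 0.98. The cargo receptor Sqstm1 was at 0.59 and its EBSS value at 2.92. No subunit of the vacuolar proton pump (16 measured) and no lysosomal hydrolase or membrane protein (29 measured) was called. The pump median was 0.13 with SB202190 and 0.84 in EBSS alone. With all-probe centring the pump median was -0.002 and the lysosomal one 0.13, against 0.25 by loess.

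Growth arrest and cell death genes were called in both directions, 4 of 23 higher and 2 lower. All 3 GADD45 genes, encoding small proteins induced by stress that bind kinases and cell cycle regulators, were higher. Gadd45a read 14.86 and 14.75 against 11.34 and 11.21, a ratio of 3.64 ± 0.14 or 12.4-fold. Gadd45b was at 2.73 ± 0.12, and a second kept probe gave 1.35. Gadd45g was at 1.35 ± 0.13, and at 0.06 in EBSS alone. The BH3-only gene Bbc3, which promotes apoptosis, was at 1.89, and the survival gene Bcl2l1 at -1.09. The kinase Plk3 was at -2.03, while Cdkn1a (-0.44) and Mdm2 (0.37), textbook targets of p53, were not called.

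The mRNAs of the kinases that SB202190 targets were not called. Mapk14, encoding p38 alpha, read 13.45 and 13.43 in EBSS with SB202190 and 13.12 and 13.10 in RPMI, and its ratio was 0.27 ± 0.13. The ratio was 0.77 with outlier spots kept and 0.94 in the authors' deposited table. It was at -0.95 in EBSS alone. Mapk11, encoding p38 beta, was at 0.23 ± 0.18, Mapkapk2 at 0.40 ± 0.15 and Mapkapk3 at 0.32 ± 0.12. Of 22 genes of the pathway, 2 were called higher and 2 lower (18.2% called, against 6.61% of all genes). The higher ones were Map2k6 (1.51 ± 0.16), an upstream activator of p38, and Mknk1 (1.42), a kinase of eIF4E. The lower ones were the substrates Mef2a (-1.16) and Mef2c (-1.22), and both other kept probes of Mef2a gave -0.29 and -0.34. The list median was 0.15.

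Phosphatases that switch off MAP kinases were called for 5 of 10 measured genes, 2 higher and 3 lower. Dusp6, specific for ERK and induced by it, read 11.62 and 11.82 against 14.80 and 14.86, a ratio of -3.22 ± 0.13. Dusp2 was at -2.19 ± 0.13. Dusp1, which acts on p38 and JNK, read 10.29 and 10.31 against 11.76 and 11.63, a ratio of -1.42 ± 0.14. In EBSS alone it read 13.60 and 13.48, above both other conditions. Dusp8 (1.53) and Dusp10 (1.06), which act on p38 and JNK, were the higher ones. Of 16 ERK feedback genes and ETS factors, Dusp6, Phlda1 (-2.39) and Elk3 (-2.02) were lower and none was higher.

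Immediate early factors were mostly lower among those called, 7 of 21 against 2 higher. Fos had the lowest ratio of all genes. Its readings were 6.62 and 6.74 in EBSS with SB202190, 8.40 and 8.22 in EBSS, and 11.03 and 10.80 in RPMI, with no overlap between the 3 conditions. The ratio to RPMI was -4.27 ± 0.16. With SB202190 only 1 of its 2 channels was well above background, and its ratio ran from -6.52 by the scanner software's signals to -2.78 with normexp fitted on all spots. Myc read 7.56 and 7.78 against 10.36 and 10.27, a ratio of -2.65 ± 0.13, and was at -0.41 in EBSS alone. Its other kept probes gave -2.49 and -1.10. Junb was at -2.17 ± 0.15, Zfp36 at -1.62 ± 0.13, Fosl2 at -1.42, Nr4a1 at -1.10 and Egr1 at -1.09. Jun (1.01) and Ier5 (1.15) were the higher ones, both close to the limit. Mxd1, an antagonist of MYC, was higher at 1.88 ± 0.13, with 0.54 from another kept probe.

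Zfp36 encodes tristetraprolin, which binds AU-rich elements and destabilises inflammatory mRNAs, and MK2 inhibits it by phosphorylation. With its relative Zfp36l1 (-1.52 ± 0.12) and the poly(C)-binding protein gene Pcbp1 (-1.12) it made up the 3 lower members of a list of 10. Rc3h1, encoding the RNA-binding protein roquin, was higher at 1.34, and a second kept probe gave 0.24. The HuR gene Elavl1 was at -0.06.

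Chemokines and cytokines were called lower for 7 of 20 measured genes and higher for none, with a median of -0.51. That median was -0.27 with normexp fitted on all spots and -0.19 with no filter on dim probes. Ccl2, which recruits monocytes through CCR2, read 13.21 and 11.64 in EBSS with SB202190, 14.63 and 14.15 in EBSS, and 16.30 and 16.39 in RPMI. Its ratio was -3.83 ± 0.15, or 14.2-fold lower, with paths of -3.18 and -5.13 that differed more than the technical error of its brightness. The related Ccl12 read 7.52 and 7.57 against 10.58 and 10.33, a ratio of -2.92 ± 0.13. Ccl7 read 6.96 and 7.31 against 10.10 and 9.90, a ratio of -2.87 ± 0.14. With SB202190 it was well above background in 1 of 2 channels. Its ratio was -4.12 by the scanner software's signals and -1.65 with normexp fitted on all spots. Ccl2, Ccl7 and Ccl12 are neighbours in the chemokine cluster on chromosome 11. Cxcl10, an interferon-induced chemokine, was at -2.65 ± 0.13, the plasminogen activator Plau at -2.16, Ccl4 at -2.06 ± 0.14 and Tnf at -1.49 ± 0.13.

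These genes were lower with SB202190 than in both other conditions. Side by side, the EBSS and SB202190 values against RPMI were 0.64 and -2.65 for Cxcl10, -0.24 and -2.87 for Ccl7, 0.00 and -2.06 for Ccl4, and -0.03 and -1.49 for Tnf. Ccl3 was at 2.35 in EBSS and -0.17 ± 0.15 with SB202190, where its readings of 13.94 and 12.93 spanned those of RPMI, 13.41 and 13.98. Il1rn, the antagonist of the interleukin 1 receptor, was at 2.48 and -0.02. The list median was 0.33 in EBSS.

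Among NF-kappaB subunits and inhibitors 2 of 15 were called higher and 1 lower. Nfkbiz, a nuclear cofactor of NF-kappaB at secondary response genes, read 11.49 and 11.40 against 8.40 and 8.34 in RPMI and 9.21 and 9.01 in EBSS. Its ratio was 3.04 ± 0.13 or 8.21-fold. Relb was at 1.06, and Bcl3, an IkappaB-like coactivator, at -2.30 ± 0.13. Toll-like receptors and their partners were called lower for 3 of 18 and higher for none (16.7% called, against 6.61% of all genes). They were the coreceptor Cd14 (-1.91 ± 0.21, readings of 14.22 and 14.33 against 15.95 and 16.23), Tlr6 (-1.65) and Tlr7 (-1.07). Tlr4, the receptor for endotoxin, was at -0.87 and not called.

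Phagocytic and scavenger receptors were called lower for 3 of 20, the anaphylatoxin receptor C3ar1 (-2.01 ± 0.12), the lectin Clec4d (-1.82 ± 0.15) and the Fc receptor Fcgr1 (-1.48 ± 0.13). All 3 were within 0.40 of RPMI in EBSS alone. None of 34 genes of actin remodelling was called, with a median of -0.10 and a range of -0.71 (Rhob) to 0.78 (Vav3).

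Macrophage identity genes were called lower for 5 of 18 and higher for none, with a median of -0.58. Cx3cr1, the fractalkine receptor, was at -2.48 ± 0.14, with readings of 7.86 and 6.75 against 10.30 and 10.14, and a second kept probe gave -0.74. It was well above background in 1 of 2 channels with SB202190. C1qa (-1.62), Cebpa (-1.55) and Irf8 (-1.11) were also lower. A second kept probe of Cebpa gave -0.48. Spi1, encoding PU.1, was not called, with paths of -1.82 and -0.27. Csf1r (-0.47), Lyz2 (-0.21) and Cd68 (-0.02) were not called.

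Receptors coupled to G proteins and their regulators were among the lower genes. Of 12 purinergic and lipid receptors 4 were lower, Lpar6 (-2.82 ± 0.12), P2ry6 (-2.52 ± 0.14), S1pr1 (-1.84) and Gpr84 (-1.02). Lpar6, a receptor for lysophosphatidic acid, had means of 10.31 against 13.14, and another kept probe gave -1.94. Of 8 regulators of G protein signalling 3 were lower, Rgs1 (-2.20 ± 0.13), Rgs18 (-1.84) and Rgs2 (-1.09 ± 0.21). A second kept probe of Rgs2 gave 0.89. Side by side, Rgs1 was at 2.11 in EBSS and -2.20 with SB202190. Interferon-stimulated genes were called lower for 7 of 28 and higher for none, with a median of -0.39. Ifit1, which binds foreign RNA, was not well above background in EBSS with SB202190. The bound for a dim gene was 4.01-fold lower there, with measured means of 6.64 against 8.85. Its log2 ratio ran from -4.62 by the scanner software's signals to -0.995 with normexp fitted on all spots. Irgm1 (-1.81), Rsad2 (-1.62), Oasl1 (-1.58), Igtp (-1.52), Isg15 (-1.37) and Gbp3 (-1.24) were also lower, and other kept probes of Rsad2 gave -1.05 and -0.75.

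ID proteins and feedback genes of BMP and TGF-beta signalling had the lowest median of the 44 lists, -0.92, although another list was lowest by the scanner software's signals, the authors' table, the median over probes and normexp fitted on all spots. Of 15 measured members 7 were called lower and none higher, and the highest value was -0.001 (Tgif1). Id1, an inhibitor of basic helix-loop-helix factors and a target of SMAD1 and SMAD5, read 8.41 and 8.42 against 12.12 and 12.37. Its ratio was -3.94 ± 0.13 or 15.4-fold lower. Skil, a corepressor of SMADs, read 8.29 and 8.23 against 11.90 and 11.79, a ratio of -3.61 ± 0.12, and another kept probe gave -1.90. Id3 (-2.57), Id2 (-2.39), Smad6 (-2.08), Smad7 (-1.38) and Bambi (-1.26) followed, and Smad7 was not well above background in EBSS with SB202190, where it was at least 1.79-fold lower, with measured means of 6.34 against 7.69. Id1 was at -4.12 in EBSS alone. Bmpr1a (-0.39) and Tgfbr1 (-0.18), receptors of the pathway, were not called.

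Mitosis and cytokinesis genes were called lower for 12 of 36 and higher for none, with a median of -0.72 and a range of -2.23 (Plk1) to -0.04 (Bub1). Plk1, the kinase that drives entry into and exit from mitosis, read 11.48 and 11.07 against 13.53 and 13.65, a ratio of -2.23 ± 0.13. Ccnb1 was at -1.71 ± 0.14, Kif22 at -1.59, Cenpf at -1.40 and Aurka at -1.38. Replication genes were called lower for 3 of 38 and higher for none (7.89%, near the 6.61% of all genes called), with a median of -0.16. They were the E cyclins Ccne2 (-1.85 ± 0.16) and Ccne1 (-1.75 ± 0.14) and the ribonucleotide reductase subunit Rrm2 (-1.02). Cyclin D1 (Ccnd1), induced by growth factors in G1, was the 1 gene called (6.25%) among 16 D cyclins, CDKs and CDK inhibitors, and was lower. It read 9.90 and 9.22 against 12.48 and 12.58, a ratio of -2.65 ± 0.13, and was at -3.70 in EBSS alone.

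The machinery of protein synthesis stayed close to RPMI in mRNA. None of 64 cytosolic ribosomal protein genes was called. Their median was 0.12 and their highest value 0.32 (Rpl10a), but the direct path gave a median of 0.29 and the indirect path -0.29. Of 39 genes of ribosome biogenesis 2 were lower (5.13%, against 6.61% of all genes called), Ppan (-1.50) and Ebna1bp2 (-1.48). Of 30 translation factors 1 was higher (3.33%, against 6.61% of all genes called), the helicase Eif4a2 (1.88 ± 0.13). None of 50 oxidative phosphorylation subunits and none of 31 proteasome subunits was called. The median of the first was 0.00, from -0.11 with all-probe centring to 0.01 with the median over kept probes. That of the proteasome was -0.05, and 0.01 on the indirect path alone.

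Among metabolic lists, the share of measured genes called in either direction was 6 of 20 for metal handling, 22.7% for fatty acid, LXR and PPAR genes, 16.7% for antioxidant genes, 8.70% for sterol synthesis and 7.41% for glycolysis and hypoxia, against 6.61% of all genes. Sterol synthesis had 2 lower of 23, among them Hsd17b7 (-1.07), an enzyme of cholesterol synthesis. Among 22 genes of fatty acid synthesis and of LXR and PPAR targets, Fabp4 (-1.67), Abca1 (-1.59), Mylip (-1.13) and Plin2 (-1.03) were lower and Acacb (1.21) higher. Of 27 glycolysis and hypoxia genes Ndrg1 and Pfkfb3 (1.34) were higher. The antioxidant list had 4 lower of 24 and none higher, with a median of -0.40. These were Hmox1 (-1.54 ± 0.13), which degrades haem, Srxn1 (-1.40), G6pdx (-1.14) and Osgin1 (-1.12). Other kept probes gave -0.25 and -0.77 for Osgin1, and 1 gave -0.48 for Mylip. Among 20 genes of metal handling 3 were higher, Mt2 (1.79 ± 0.21), Slc11a2 (1.29) and Slc30a1 (1.23). The 3 lower ones were the iron exporter Slc40a1 (-2.16 ± 0.14), the zinc sensor Mtf1 (-1.67) and Slc39a10 (-1.04). Other kept probes gave 0.97 for Mtf1, and -0.26 and 0.36 for Slc11a2.

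Chaperones of the endoplasmic reticulum held 2 higher of 26 (7.69%, near the 6.61% of all genes called). They were Herpud1 (2.30 ± 0.14), which serves degradation of misfolded proteins, and Dnajb9 (1.03), whose other kept probes gave 0.75 and 0.87. Herpud1 read 13.92 and 14.04 against 11.68 and 11.69. The chaperone Hspa5 was at 0.28. Heat shock chaperones held Dnajb4 (1.18) higher and Bag3 (-1.09) lower among 18 (11.1% called). Another kept probe gave 0.91 for Dnajb4 and -0.56 for Bag3. Replication-dependent histone genes were called higher for 3 of 20 and lower for 1 (20.0% called). The higher ones were the H2B genes H2bc4 (2.13 ± 0.13), H2bc14 (1.86) and H2bc12 (1.83), whose near-identical sequences a probe may not tell apart, and the lower one was H1f5 (-1.15). Of 12 tubulins Tuba1c (-1.43 ± 0.21) was lower (8.33%), and of 17 Polycomb and chromobox genes Cbx8 was higher (5.88%), near the 6.61% of all genes. Cbx8 read 11.24 and 11.21 against 8.44 and 8.54, a 5.67-fold difference, but a second kept probe gave 0.36. Among 236 measured zinc finger genes named Zfp with a number, 13 were higher and 18 lower, 13.1% of them against 6.61% of all genes. Zfp346 (2.16) and Zfp959 (1.98) were the highest and Zfp710 (-2.42) the lowest. With all-probe centring the higher calls were 4 among small nucleolar RNA hosts, 2 among growth arrest genes, 1 among amino acid carriers and 2 among the Zfp genes. No higher call was then left among MAP kinase phosphatases, immediate early factors, metal handling, glycolysis or histone genes. With normexp fitted on all spots, lower calls were 1 among Toll-like receptors and partners and 3 among interferon-stimulated genes.

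**Figure D4:**
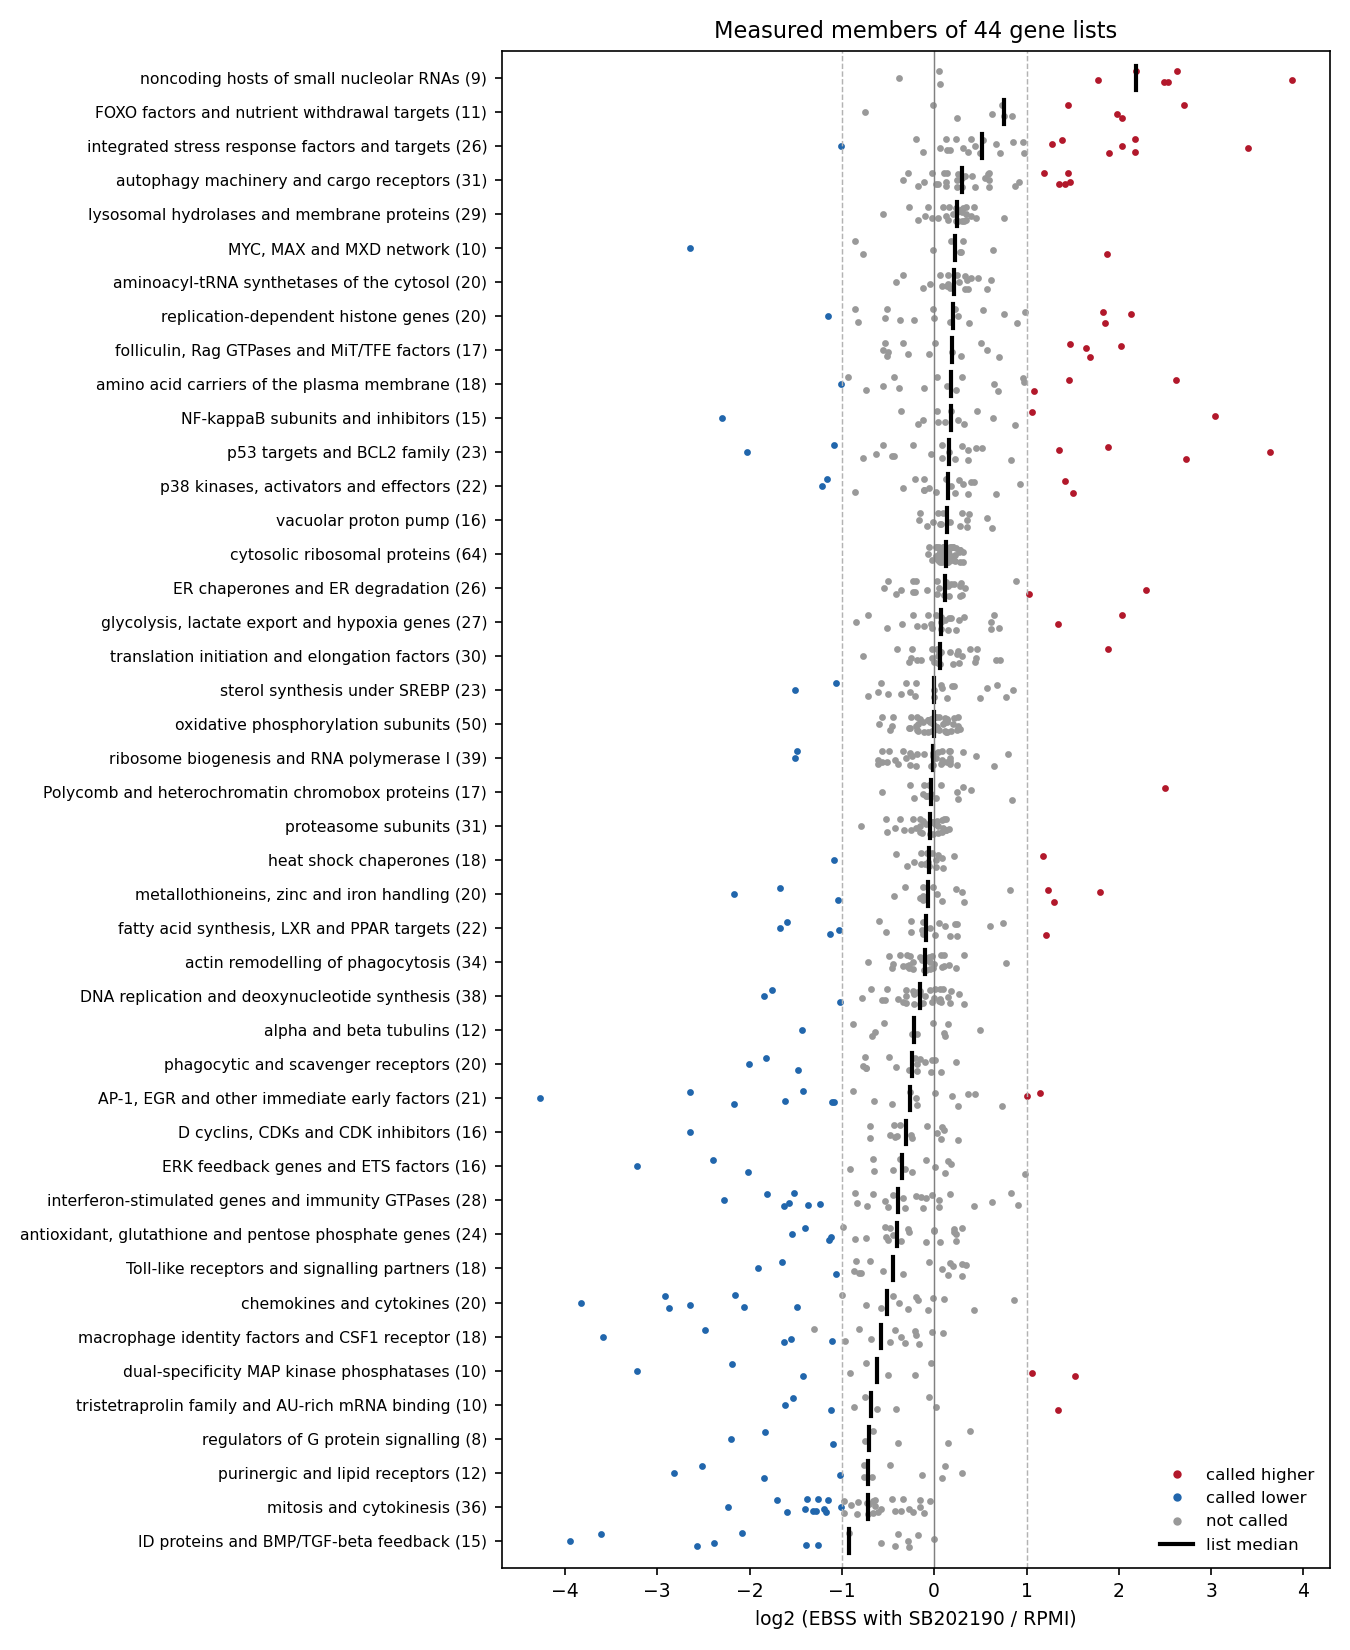
Log2 ratio of EBSS with SB202190 over RPMI for each measured member (points) of 44 gene lists, with the number measured in brackets and the list median as a black bar; dashed lines mark a size of 1. Small nucleolar RNA hosts have the highest median (2.18) and ID and BMP/TGF-beta feedback genes the lowest (-0.92), while the 64 ribosomal protein genes lie close together around a median of 0.12.

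Some called genes had an EBSS value near RPMI, under 0.5 in size. The highest were 5031425E22Rik (2.53 ± 0.16, 0.09 in EBSS), Cbx8 (2.50 ± 0.13, -0.31 in EBSS), Cxxc5 (2.09 ± 0.16, 0.25 in EBSS), 1810062O18Rik (1.98), Rfesd (1.79) and Gab3 (1.75). Gab3 was well above background in 1 of 2 channels of RPMI, and its ratio was 0.81 with normexp fitted on all spots. Cxxc5 encodes a CXXC zinc finger protein and Gab3 a docking protein downstream of the CSF1 receptor. The lowest were Ccl7, Myc, Rbm12 (-2.48 ± 0.13, 0.48 in EBSS), Ifit1, Junb and Ccl4. Conversely, some genes called in EBSS against RPMI lay under 0.5 in size with SB202190, and the 6 with the largest EBSS values are given here. Ifi207, an interferon-inducible gene, read 9.82 and 9.74 with SB202190, 9.78 and 9.96 in RPMI, and 12.95 and 12.79 in EBSS. Its values against RPMI were -0.16 ± 0.13 with SB202190 and 3.04 in EBSS. Il7r, the receptor chain for interleukin 7, was at -0.03 and 2.62, Sh3gl3 at 0.03 and 2.72, Zfp975 at -0.32 and 2.77, and Cyp3a41a at 0.47 and 2.58. Angptl4, a secreted inhibitor of lipoprotein lipase, was at -0.25 ± 0.13 with SB202190 and -2.77 in EBSS.

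Motifs were counted in the promoters of 8634 measured genes with an entry in RefSeq, from 250 bases before to 50 after the start, on both strands. The C/EBP-ATF element, TGATGNAA, was present in 14 of 225 promoters of higher genes (6.22%), 8 of 360 of lower genes (2.22%) and 2.26% of all. In 7 of the 14 it began 90 to 120 bases before the start, as it did in 28 of the 195 holders among all measured genes and 0 of the 8 among lower genes. This window was set after the positions had been seen. Such promoters included those printed above, where it began 112 (Herpud1), 110 (Nupr1 and Atf3) and 101 (Gadd45g) bases before the start. The TATA box, TATAAA, was present in 9.33% of higher, 13.1% of lower and 7.13% of all promoters. On the gene's strand, 20 to 35 bases before the start, it was present in 2.67%, 4.72% and 1.26%. It began 33 bases before the start of Fos and 31 before that of Ccl12. The ETS site, CCGGAAGT, was present in 4.0% of higher, 5.28% of lower and 9.37% of all promoters. The NF-kappaB site, GGGNNTTCC, was present in 8.89%, 9.17% and 7.51%. The AP-1 site, TGANTCA, was present in 5.78%, 7.5% and 4.89%, and the E box, CACGTG, in 12.9%, 7.5% and 10.7%. The CLEAR-type E box, TCACGTGA, which contains the E box, was present in 1.33%, 0.833% and 2.17%. Shares for the cAMP response element (TGACGTCA) were 5.33%, 3.89% and 3.51%, for the antioxidant response element (TGACNNNGC) 20.0%, 12.2% and 14.9%, and for the forkhead site (GTAAACA) 4.0%, 2.78% and 2.49%. A match describes these letters only, not binding, and shares were not tested.

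**Figure D5:**
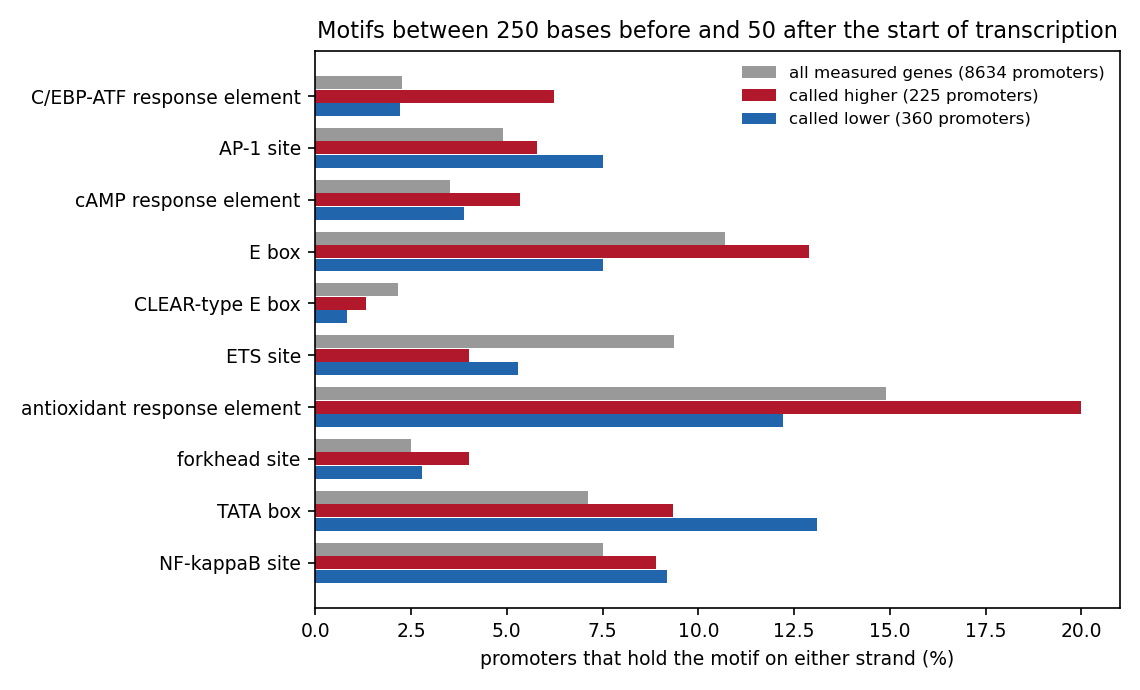
Share of promoters (%) that hold each of 10 motifs on either strand, for all measured genes (grey, 8634 promoters), genes called higher (red, 225) and genes called lower (blue, 360). The C/EBP-ATF element is at 6.22% among higher genes and 2.26% among all, and the TATA box at 13.1% among lower genes and 7.13% among all.

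The highest and lowest genes outside the lists were few. Glcci1, a glucocorticoid-induced gene, read 11.41 and 11.43 against 8.78 and 8.75, a ratio of 2.62 ± 0.13, and was at 2.76 in EBSS. Arl4c, a small GTPase of the ARF family, read 13.20 and 13.44 against 15.94 and 16.07, a ratio of -2.85 ± 0.15, and another kept probe gave -0.94. Soga1 was at -2.79 ± 0.16, and another kept probe gave -1.38. Uncalled list members named with a value were chosen as examples after their values had been seen, as were called members beyond the first 4 of a list.

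Genes also differed in length. The median genomic span in RefSeq was 15362 bases for the lower genes, 22168 for the higher genes and 21775 for all measured genes with a value. Among called genes 286 were covered by a further kept probe, whose ratio pointed the other way in 19 of them and stayed below 0.5 in size in 67.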

How the data were processed

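RNA of 3 conditions of J774A.1 cells was hybridised on 3 mouse two-colour arrays. The design text can be read as placing RPMI in all media, and the sample source names were followed. Spot and background intensities, and marks per spot for detection, saturation and outliers, were made by the authors, whose scanner software is named in the file headers (Agilent Feature Extraction, version 9.5.3.1). The authors' deposited table holds log2 ratios of Cy5 over Cy3, not centred, which match those of the scanner software's processed signals, and was used as an alternative.

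Mean spot intensities were corrected with normexp (offset 50) and normalised by loess within each array in limma 3.58.1 (R 4.3.3). Control spots and outlier spots were left out of the ratios. Between 2 and 11 spots per channel had a local background brighter than the spot. Fitted on all spots, normexp gave background means of -572 to 5.21, against 18.9 to 121 without those spots, so they were left out of the fit. This was decided after seeing the data, and the fit on all spots is an added alternative. Readings per channel are log2 values after a further scaling that equalises mean brightness between arrays (Aquantile). M1, M2 and M3 being the log2 Cy5/Cy3 ratios of the arrays, the estimate was (2 × M3 - M1 - M2)/3, its direct path M3 and its indirect path -(M1 + M2). The technical SE came from the robust SD of the loop sum in 30 bins of intensity. A bound for a dim gene set the bright condition's mean against the higher of the gene's own signal and the lowest signal well above background. It holds under the main processing only, and other settings gave smaller ratios for some of these genes.

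The 44 gene lists and the comparison were chosen with earlier results of these data known. Named genes were the 12 highest and 12 lowest calls, the 6 highest and 6 lowest calls with EBSS near RPMI, the 6 largest EBSS changes near RPMI with SB202190, up to 4 calls per list, the 5 genes whose paths differed most, fixed genes of the p38 and stress pathways, and uncalled examples. Zfas1 was added to the snoRNA hosts after the data were seen. Names were updated through RefSeq, and 1152 measured genes keep the array's name. A total of 13 alternatives were planned and 1 was added. Some genes that met the naming rule are not reported here.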

Additional observations from a re-analysis of the deposited data

How the results depend on the processing

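Against 287 genes called higher, 784 called in either direction and 63.4% of calls lower, the scanner software's signals called 473 higher and 1247 in either direction, and the authors' table gave the same counts. Centring on all probes called 72 higher and 538 in either direction, 86.6% of them lower, and moved the median of all genes to -0.09. A size of at least 1.5 called 99 and 256, and normexp fitted on all spots, an alternative chosen after seeing the data, called 174 and 462. Under the other 9 alternatives, both counts stayed within 1.5 times. These gave 235 to 339 higher and 441 to 713 lower genes. No called gene was called in the opposite direction under any alternative, and 1 changed sign with the median over probes. The causes of these moves were not tested. With all-probe centring, the 287 genes called higher had a median ratio of 1.225, with a median direct path of 1.82 and indirect path of -0.03. The 497 genes called lower had a median ratio of -1.41, with paths of -0.82 and -2.75. The pump median turned to -0.002 with all-probe centring, and the ribosomal protein median to -0.29 on the indirect path. Probes near background limit the size of ratios of dim genes. No paired analysis was possible because each condition was 1 sample and the labels give no shared replicate numbers.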
